A study of Homo sapiens with 20 samples.

Results

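Induction of the EHMT1 double-lysine mutant K450RK451R was followed by RNA-seq in a stable line of LNCaP, an androgen-sensitive human prostate cancer cell line. The comparison set the 2 doxycycline columns of the K450RK451R line (Dox) against its 2 columns without the drug (Veh, named untreated in the sample labels), which are 4 of the 20 samples of the series. In the other 3 stable lines the cells carried wild-type EHMT1 (WT) or the single mutants K450R and K451R, each with and without doxycycline, and separate LNCaP cells received siRNA against EHMT1 (siEHMT1) or a non-target control (siNTC) at 20 nM. All stable lines grew in RPMI medium with FBS and carried a lentiviral, doxycycline-inducible, V5-tagged EHMT1 open reading frame on top of the endogenous gene. Dox cells received 0.25 µg/mL for 2 days. A line without a transgene was not treated with doxycycline here, so the drug itself and the induced protein cannot be told apart.

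EHMT1 (also called GLP) and its partner EHMT2 (G9a) are histone methyltransferases that place mono- and dimethylation on lysine 9 of histone H3, a mark of repressed genes in open chromatin. They act in complexes with zinc finger proteins such as WIZ and with corepressors, and the methyl mark is removed by demethylases such as KDM3A. Lysines can be methylated on other proteins too, EHMT1 among them, and an exchange of lysine for arginine keeps the positive charge but removes the site. The codons that the mutant changes are shown because they define the line: in the coding sequence of EHMT1 on GRCh37 they occupy chr9:140648722-140648727 (+ strand), in exon 8 of transcript ENST00000460843. The window at chr9:140648710-140648739 is the reference sequence, with the codons of the K450R and K451R changes in capitals, both of which encode lysine.
EHMT1 codons: cggagaagtagaAAGAAGcccagcggtgcc
Counts per gene do not show which codon a read carried.

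The 2 columns of each stable-line condition differed by no more than the noise of counting reads. In a chi-square test over genes the statistic per degree of freedom was 1.001 for K450RK451R Veh and 1.009 for K450RK451R Dox. For the siRNA cells it was 61.6 for the siNTC pair and 13.4 for the siEHMT1 pair. Each stable-line pair was therefore summed and counted as 1 sample, with 9910958 counts in K450RK451R Veh and 11807787 in Dox. The line thus had 1 library a side, and the comparison within it has no replicate check. Intervals given for fold changes are exact binomial 95% intervals and cover counting error only. Mitochondrially encoded transcripts took 12.3% of the counts in K450RK451R Veh and 8.04% in Dox, the lowest share of the 8 libraries, whose highest was 14.4%. The luminal prostate markers, KLK3 among them, were at full level in all 8 libraries (summed 11890 to 13170 CPM, counts scaled by library size and TMM). Leukocyte markers summed to 0.710 CPM or less and basal markers to 9.37 CPM or less, with 2 of 5 and 3 of 5 of these genes without a count in K450RK451R. Fibroblast and stroma markers summed to 101.3 to 113.5 CPM, mostly from VIM and COL1A1, and endothelial markers to 3.35 to 7.25 CPM.

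EHMT1 (chr9:140513444-140764468) was induced in every line. In K450RK451R it stood at 88.9 CPM before and 663 CPM after doxycycline. The Veh levels elsewhere were 76.4, 84.2 and 71.7 CPM in WT, K450R and K451R, and the Dox levels 797, 842 and 726 CPM. The Dox level was thus lowest in the double mutant and its Veh level highest, and no Veh library overlapped a Dox library. The log2 fold change in K450RK451R was 2.90 (95% interval 2.80 to 3.001), from 876 and 8553 counts. It was smaller than the shared effect of the other lines by 0.45 on the log2 scale, a difference that did not pass the test (SE 0.13, edgeR adjusted p = 0.406). In the siRNA cells EHMT1 fell by edgeR's test within that table (log2 fold change −1.51, adjusted p = 1.48e-07).

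The other subunits and counterparts of EHMT1 were nearly level in the double mutant. EHMT2 was at 87.2 CPM with Veh and 83.9 CPM with Dox, and for the corepressor genes the log2 fold change was 0.12 for KDM1A (LSD1), 0.09 for RCOR1, 0.08 for REST, −0.09 for HDAC1 and 0.00 for HDAC2. Of 38 measured genes on a list of the EHMT1 complex and H3K9 methylation, none was 1.5-fold higher or lower. Over all 9483 genes with at least 200 counts, 2.13% were higher and 1.41% lower, so a list of this size would hold few. The median log2 fold change of the list was −0.02, beside −0.01 over all 9483 genes. KDM3A, the H3K9 demethylase that is also a hypoxia target, was the member that passed the test described further on. It fell from 174 to 117 CPM (log2 fold change −0.57, edgeR adjusted p = 0.0153), with values between 120 and 171 CPM in the other lines. In that test 0.58% of all 9483 genes fell. Of 6 measured neuronal genes that REST represses, none passed 1.5-fold, beside 2.13% higher and 1.41% lower over all genes. The median of these 6, out of 40 listed, was −0.15 in K450RK451R, against 0.10, 0.17 and 0.08 in WT, K450R and K451R. Over the alternative ways of processing, the K450RK451R median ran from −0.18 to −0.02.

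At least 1.5-fold higher with Dox were 202 of the 9483 genes (2.13%) and at least 1.5-fold lower were 134 (1.41%). The higher share was 0.426% in WT and 1.22% in each single mutant. The lower share was 1.32% in WT, 1.01% in K450R and 1.56% in K451R. The higher genes lay among the low counts, with a median of 326.5 counts over both libraries, and the lower genes at 456.5, while all 9483 genes had a median of 802. Among the 3932 genes with at least 1000 counts, 6 were higher and 34 lower, so the balance between the directions turned with the count minimum. The interval lay wholly beyond the 1.5-fold line for 28 of the higher and 33 of the lower genes. A gene with 200 to 250 counts had a median interval of ±0.40 on the log2 scale.

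**Figure D1:**
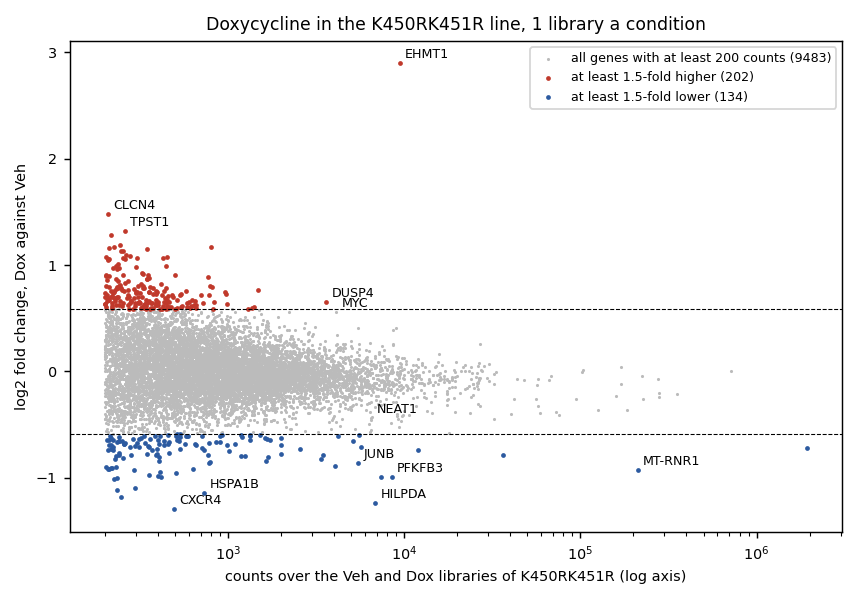
Each point is a gene with at least 200 counts in the K450RK451R line, placed by its counts over the Veh and Dox libraries (log axis) and its log2 fold change, with dashed lines at 1.5-fold. Of the 202 genes above the upper line, 6 have at least 1000 counts, EHMT1 and DUSP4 among them, and well-counted genes such as PFKFB3, HILPDA and MT-RNR1 lie below the lower line.

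EHMT1 led the 10 highest genes, and the others were CLCN4, TPST1, RPUSD2, CHST10, TMEM185B, MIR3687, ANKRD46, C17orf96 and INTS9, with log2 fold changes between 1.13 and 1.48. CLCN4 (chrX:10125015-10205700), an endosomal chloride/proton exchanger, had 45 and 164 counts, or 4.57 and 12.7 CPM (log2 fold change 1.48, interval 0.99 to 1.99). Its Dox level was the highest of the 8 libraries and its Veh level the lowest. TPST1, a Golgi tyrosine sulfotransferase, went from 6.19 to 15.4 CPM, while its values elsewhere lay between 8.53 and 12.1 CPM. CHST10 (6.19 and 14.1 CPM), a carbohydrate sulfotransferase, was slightly lower with Dox in each of the other lines. CLCN4, TPST1 and CHST10 thus combined a low Veh value with a high Dox value in this line, which a ranking by this fold change favours. Not all of the 10 did so. MIR3687 reached 46.2 CPM with Dox, below the Dox level of every other line. RPUSD2 had 5.28 CPM with Veh, above the 4.93 CPM of K450R Veh.

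In 133 of the 202 genes the K450RK451R Dox library was the highest of the 8 (15.5% of all 9483 genes), and in 105 the K450RK451R Veh library was the lowest (11.8%). In 80 of the 134 lower genes the Dox library was the lowest of the 8 (16.4% of all genes), and in 55 the Veh library was the highest (12.8%). The same 2 libraries chose these genes, so the counts describe them and the distance from all genes is built into the choice. Of the 202, 7 were also at least 1.5-fold higher in WT, 16 in K450R and 20 in K451R, where 36, 105 and 107 of all 9483 genes were. The median log2 fold change of the 202 was 0.70 in K450RK451R, the line that chose them, and 0.03, 0.22 and 0.25 in WT, K450R and K451R. In the siRNA cells the median of the 202 was 0.00, and 101 of them were negative, beside 4983 of 9481 genes with at least 200 counts. By edgeR's test, 19 of 14532 genes differed in siEHMT1 cells at an adjusted p under 0.05 (0.131%). At an unadjusted p under 0.05, siEHMT1 cells were lower for 15 of the 202 and higher for 13, while 6.15% and 3.81% of all these genes were lower and higher there.

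The genes the study names for this mutant had few counts. LIPT2, a lipoyl transferase, had 1 Veh and 29 Dox counts (log2 fold change 4.47, interval 1.88 to 9.82). FRMPD2, a scaffold protein gene, had 41 and 100 counts, or 4.16 and 7.75 CPM, and its values in the other lines ran from 3.72 to 7.90 CPM. PPP1R14C, a phosphatase inhibitor, had 31 and 71 counts, or 3.14 and 5.50 CPM. None of these passed the test of the Dox effect in K450RK451R (edgeR adjusted p = 0.0725, 0.344 and 0.485). The LIPT2 Dox level of 2.25 CPM stood beside 2.04 CPM in K451R Dox, so its large ratio came with the low Veh value of 0.101 CPM, against 0.929 to 1.58 CPM in the other Veh libraries. The study also measured LIPT2, FRMPD2 and PPP1R14C by qRT-PCR. For PPP1R14C it reported mutant-specific binding at the locus and a loss of the induction when E2F1 was silenced. Those assays were not examined here.

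To set the effect of Dox against a spread between samples, the 8 summed libraries were fitted together, with the Dox effect of K450RK451R as a term of its own and the spread taken from how far WT, K450R and K451R departed from a common effect (2 residual degrees of freedom). This test assumes that K450RK451R would vary as the other lines did. It was added after the data were examined. Of 13765 genes, 25 rose (0.182%) and 61 fell (0.443%) with Dox in K450RK451R at an adjusted p under 0.05. Among the 9483 genes with at least 200 counts these were 20 (0.211%) and 55 (0.58%). Over the other lines together, 42 rose (0.305%) and 167 fell (1.21%). The 61 had a median of 1679 counts and the 25 a median of 452. Without the WT line the counts were 112 and 185, without K450R 58 and 108, without K451R 62 and 125, and with the DESeq2 test 1 and 2.

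Genes induced by hypoxia-inducible factors (HIF) were the largest listed group among those that fell. HIF is the transcription factor pair that cells use to switch on glucose uptake, glycolysis and vessel growth when oxygen is short, and its targets are also active in dense cultures. Of 41 measured HIF targets, 10 fell and none rose at the adjusted p, beside 0.58% of all genes falling. A negative fold change was seen in 35 of the 41, and in 4907 of all 9483 genes. The median log2 fold change of the list was −0.26 in K450RK451R, −0.23 in K451R, −0.08 in K450R and −0.02 in WT. Those that fell were PFKFB3, FUT11, HILPDA, ANKRD37, BHLHE40, EFNA3, KDM3A, EFNA1, MXI1 and ERO1L.

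HILPDA (chr7:128095903-128098472), a lipid droplet protein that inhibits lipolysis, went from 445 to 188 CPM in K450RK451R. WT had 1027 and 967 CPM, K450R had 732 and 352 CPM, and K451R had 649 and 243 CPM. The double mutant thus had both the lowest Veh and the lowest Dox level, and its fall (log2 fold change −1.24, edgeR adjusted p = 0.000698) was close in size to those of the single mutants (−1.06 and −1.42), while WT had −0.09. PFKFB3 (chr10:6186897-6296607), which makes the activator of phosphofructokinase in glycolysis, fell from 519 to 261 CPM (−0.99, edgeR adjusted p = 0.000393). Its log2 fold change was −0.60 in K450R, −0.78 in K451R and 0.03 in WT, where both libraries stood above 700 CPM. WT was likewise the line with the least change for ANKRD37 (−0.89, −0.98, −0.53 and 0.00 in K450RK451R, K451R, K450R and WT) and for BHLHE40, a transcriptional repressor (−0.74, −0.60, −0.53 and 0.12).

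Other familiar targets had smaller changes and did not pass the test. VEGFA, the vessel growth factor, went from 1193 to 912 CPM in K450RK451R (−0.39, edgeR adjusted p = 0.113) with decreases of 0.27 to 0.56 in all other lines. NDRG1 (2714 and 2264 CPM), BNIP3 (676 and 618 CPM) and PDK1 (251 and 229 CPM) had log2 fold changes of −0.26, −0.13 and −0.13. These 4 genes were picked after their values were seen, as familiar members of the list. In glycolysis, 1 of 22 measured genes fell, beside 0.58% of all genes: SLC2A1, the glucose transporter GLUT1, from 284 to 181 CPM (−0.65, edgeR adjusted p = 0.0143). HK2, ENO2 and ALDOA stood at −0.48, −0.43 and −0.37, and the list median was −0.15.

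Promoters were available for 37 of the 47 listed HIF genes, as RefSeq windows on GRCh38.p14 from 250 bases before to 50 bases after the start site. The core of the hypoxia response element, ACGTG, was searched on both strands. It also lies within the E-box CACGTG, which counts here as a match. It occurred in 21 of the 37 windows (56.8%) and in 21.6% of all 27305. Among the HIF genes that fell, 8 had a window and 3 held the motif (37.5%). Those 3 are printed, with the matches to ACGTG or its reverse complement in capitals, because they let the listed genes that moved together be compared: ANKRD37 at chr4:185396591-185396890 (+ strand), BHLHE40 at chr3:4979187-4979486 (+ strand) and ERO1A, named ERO1L in the count table, at chr14:52695509-52695808 (- strand).
ANKRD37: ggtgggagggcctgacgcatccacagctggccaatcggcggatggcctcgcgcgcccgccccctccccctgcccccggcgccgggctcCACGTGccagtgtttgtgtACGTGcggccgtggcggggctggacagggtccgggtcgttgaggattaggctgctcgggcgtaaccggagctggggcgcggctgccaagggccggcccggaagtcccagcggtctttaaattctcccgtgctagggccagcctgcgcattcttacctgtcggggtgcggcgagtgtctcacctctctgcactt
BHLHE40: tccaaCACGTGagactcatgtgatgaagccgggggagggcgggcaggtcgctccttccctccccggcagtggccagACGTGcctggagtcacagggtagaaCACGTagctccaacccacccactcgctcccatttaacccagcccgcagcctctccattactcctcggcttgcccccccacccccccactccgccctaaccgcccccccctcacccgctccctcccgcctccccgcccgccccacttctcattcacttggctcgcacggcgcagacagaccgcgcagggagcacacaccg
ERO1A: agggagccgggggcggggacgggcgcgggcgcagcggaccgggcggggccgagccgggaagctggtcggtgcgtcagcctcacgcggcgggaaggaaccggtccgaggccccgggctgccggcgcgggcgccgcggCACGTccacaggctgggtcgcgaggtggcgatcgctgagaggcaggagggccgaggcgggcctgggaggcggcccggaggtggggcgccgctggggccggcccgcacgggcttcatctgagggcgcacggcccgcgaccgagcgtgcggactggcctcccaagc
ANKRD37 and BHLHE40 each hold a full CACGTG, and ERO1A holds 1 match on the reverse strand. The windows of PFKFB3, EFNA1, EFNA3, KDM3A and MXI1 held no match.

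Immediate-early genes, which answer growth factors and stress within minutes, moved in both directions. Of 18 measured, 6 fell (JUNB, DUSP1, KLF10, IER2, ZFP36 and JUND) and 2 rose (DUSP4 and MYC), beside 0.58% and 0.211% of all genes. The list median was −0.45 in K450RK451R, −0.46 in K451R, −0.27 in K450R and −0.06 in WT. DUSP1, a phosphatase of MAP kinases, fell from 453 to 227 CPM (−0.997, edgeR adjusted p = 0.00195). K451R had nearly the same levels (454 and 229 CPM), whereas K450R went from 599 to 502 CPM and WT from 512 to 579 CPM. JUNB, an AP-1 subunit, fell from 323 to 178 CPM (−0.86, edgeR adjusted p = 0.00146), and its WT libraries were at 490 and 487 CPM. FOS itself, named after its values were seen, was already low in K450RK451R Veh, at 45.8 CPM against 74.5 to 185 CPM in the other Veh libraries, and reached 32.8 CPM with Dox.

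MYC, the growth-promoting transcription factor, rose from 142 to 209 CPM (log2 fold change 0.56, interval 0.46 to 0.65, edgeR adjusted p = 0.0175). DUSP4, which inactivates ERK, rose from 120 to 188 CPM (0.65, edgeR adjusted p = 0.00267). Both were higher with Dox in all 4 lines. MYC stood at 106 and 134 CPM in WT, 114 and 144 CPM in K450R and 135 and 207 CPM in K451R, so that K451R and K450RK451R reached about the same Dox level. The Dox effect on MYC in the double mutant exceeded that of the others by 0.13 on the log2 scale, which did not pass the test (edgeR adjusted p = 0.895).

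**Figure D2:**
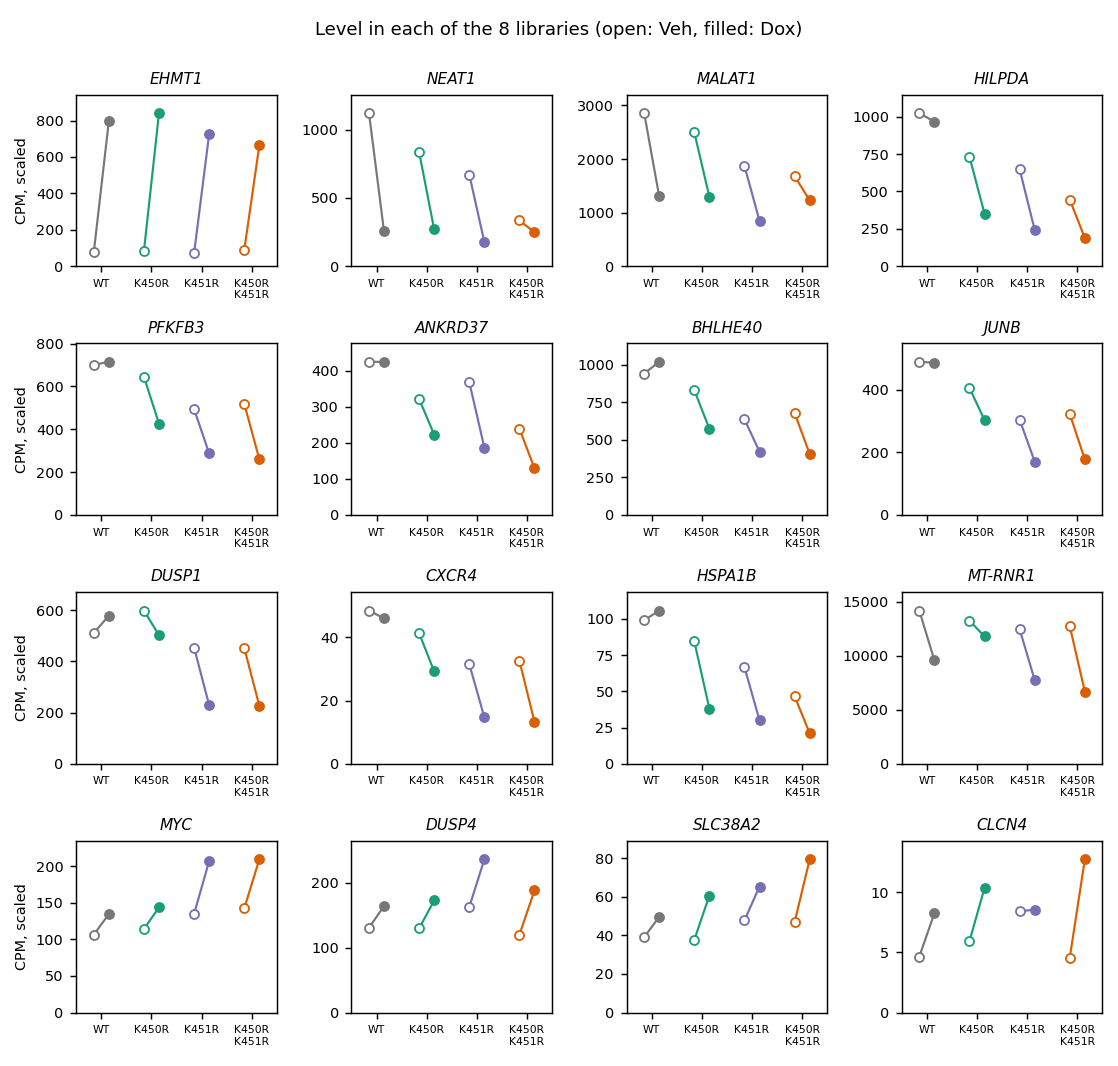
Scaled counts (CPM, linear axes from 0) of 16 genes in the 8 summed libraries, with Veh as open and Dox as filled circles joined within a line. HILPDA, PFKFB3, JUNB and HSPA1B go down in K450R, K451R and K450RK451R and are nearly level in WT, NEAT1 starts low in K450RK451R Veh, and MYC and DUSP4 go up in all 4 lines.

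The E2F and MYC target lists had weakly positive medians. E2F factors switch on the genes for DNA replication, and MYC targets include the machinery that builds ribosomes. Of 57 measured E2F targets, 2 were at least 1.5-fold higher (beside 2.13% of all genes), none was lower, and none rose or fell in the test. A positive change was seen in 39 of the 57, and in 4576 of all 9483 genes. The list median was 0.09 in K450RK451R and 0.03, 0.08 and 0.05 in WT, K450R and K451R. ASF1B, a histone chaperone of replication, was at 22.5 and 36.97 CPM (0.72, edgeR adjusted p = 0.0522). MCM3, part of the replicative helicase, was at 37.8 and 55.9 CPM, where the other 6 libraries lay between 32.6 and 41.5 CPM (0.56, edgeR adjusted p = 0.103). E2F1 was at 48.4 and 50.4 CPM and MCM7 at 131 and 147 CPM.

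Among 55 MYC and ribosome biogenesis genes, 1 was at least 1.5-fold higher (beside 2.13% of all genes), 41 were positive (beside 4576 of all 9483 genes) and none passed the test. Their median was 0.15, against 0.04, −0.03 and 0.11 in WT, K450R and K451R. HEATR1, a nucleolar factor, had the largest change (25.0 and 41.2 CPM, 0.72, edgeR adjusted p = 0.0573), with 33.8 CPM in K451R Dox as the next highest library. NOP56, a snoRNP core protein, was at 31.7 and 46.7 CPM and had log2 fold changes of −0.06, −0.13 and 0.10 in the other lines. On the G2/M list 1 of 54 genes was 1.5-fold higher, beside the same 2.13% of all genes, and the median was −0.02. Of the MYC and ribosome genes, 5 had an unadjusted p under 0.05 for a more positive effect in K450RK451R than elsewhere and 1 for a more negative one, where 3.57% and 3.81% of all genes did.

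Other groups gave fewer calls. Of all 9483 genes, 2.13% were at least 1.5-fold higher, 1.41% were lower, and in the test 0.211% rose and 0.58% fell. Of 42 androgen-response genes, 1 was at least 1.5-fold higher (UGT2B11, a glucuronosyltransferase of androgens, at 17.1 and 25.8 CPM), none passed the test and the median was 0.01. PMEPA1, an androgen-induced inhibitor of TGF-beta signalling, was at 51.6 and 77.1 CPM, and its change was larger in K450R (0.99) and K451R (0.92) than in K450RK451R (0.58). Among 40 genes of the ATF4 amino acid response, SLC38A2, a glutamine transporter, rose from 46.9 to 79.4 CPM (0.76, edgeR adjusted p = 0.00544) and had positive changes of 0.34 to 0.69 elsewhere. Of 13 WNT genes, 1 was higher (PPARD) and 1 lower (ID2, a helix-loop-helix inhibitor, at 25.5 and 12.8 CPM), and none passed the test. No p53 target or ER chaperone passed 1.5-fold, among 23 and 27 measured.

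Among the smaller lists, 3 of 14 clock genes fell, namely PER1, NR1D1 (REV-ERB alpha) and BHLHE40, which is also a HIF target, beside 0.58% of all genes. NR1D1 went from 18.8 to 8.76 CPM in K450RK451R and from 13.0 to 7.90 CPM in K451R, with 17.0 and 17.6 CPM in WT. HSPA1B, the inducible chaperone HSP70, fell from 46.6 to 21.1 CPM (−1.14, edgeR adjusted p = 0.0171), by the same amount as in K450R and K451R (−1.15 in each), against 0.09 in WT. It was the one heat shock gene of 18 that fell, beside 0.58% of all genes. HSPA1B has a near-identical neighbour, HSPA1A, so its counts are uncertain. INSIG1, a brake on sterol synthesis, fell from 347 to 233 CPM (−0.57, edgeR adjusted p = 0.0179). Of the 33 sterol genes none was 1.5-fold changed, beside 2.13% higher and 1.41% lower over all genes. MT2A, a metal-binding protein, fell from 109 to 70.5 CPM (−0.63, edgeR adjusted p = 0.0353) and went the other way in WT, from 107 to 152 CPM.

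CXCR4 (chr2:136871919-136876747), the chemokine receptor for CXCL12, had the lowest fold change of all genes with at least 200 counts. It fell from 32.6 to 13.3 CPM (−1.30, interval −1.57 to −1.02, edgeR adjusted p = 0.00175). K451R went from 31.5 to 14.7 CPM, K450R from 41.3 to 29.2 CPM and WT from 48.5 to 46.0 CPM, so the WT libraries were the 2 highest. RNF208, a ubiquitin ligase, showed another pattern: it fell from 15.8 to 6.98 CPM in K450RK451R (−1.18, edgeR adjusted p = 0.0404) while the other 6 libraries lay between 7.69 and 10.7 CPM. There the Veh value stood apart, and the difference from the other lines did not pass (−1.39, edgeR adjusted p = 0.273). ELF3, an epithelial transcription factor, fell from 200 to 116 CPM, with decreases of about the same size in K450R and K451R.

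Mitochondrially encoded genes were lower in K450RK451R Dox. Of 10 measured, 7 were at least 1.5-fold lower, beside 1.41% of all genes. All 10 had a negative change, as did 4907 of all 9483 genes. In the test 1 of the 10 fell, beside 0.58% of all genes, and the others did not pass. The one that fell was MT-RNR1, the small ribosomal RNA, from 12719.5 to 6667 CPM (−0.93, edgeR adjusted p = 0.00104). The list median was −0.75 here, −0.80 in K451R and −0.60 in WT but 0.41 in K450R. MT-CYB, the cytochrome b gene, went from 24.4 to 12.3 CPM in K450RK451R and from 14.8 to 26.8 CPM in K450R. With the mitochondrial and rRNA-like genes left out of both the scaling and the count, the double mutant had 192 genes higher and 131 lower.

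**Figure D3:**
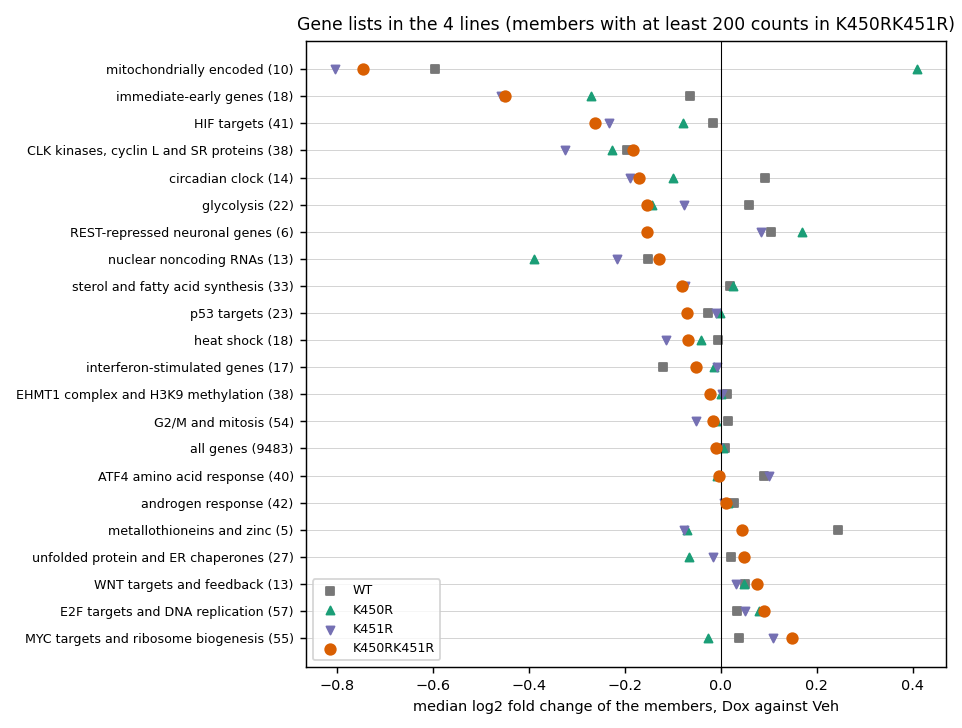
Median log2 fold change of Dox against Veh for gene lists and all genes in the 4 lines. The number of members that had at least 200 counts in K450RK451R is in parentheses. The neuroendocrine list, with 2 such members, and the cell type markers are not shown. The K450RK451R points (circles) lie at −0.75 for mitochondrially encoded, −0.45 for immediate-early and −0.26 for HIF genes, close to K451R, and at 0.15 and 0.09 for the MYC and E2F lists.

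Most genes that rose or fell in the double mutant had the same sign of change in both single mutants. Of the 61 that fell, 56 had a negative change in K451R, 50 in K450R and 35 in WT. Their medians were −0.49, −0.27 and −0.02, beside −0.74 in K450RK451R. Of all 9483 genes, 4626 had a positive change in K451R, 4826 in K450R and 4955 in WT. In 24 of the 61 the fall over the other lines together also passed the test, beside 1.21% of all 13765 genes. Of the 25 that rose, 20 had a positive change in each of WT, K450R and K451R. Over the other lines 6 of them also passed, beside 0.305% of all genes. Both tests use the same spread for a gene, so part of this overlap is built in. Among the 134 genes at least 1.5-fold lower in K450RK451R, 43 were so in K451R, 15 in K450R and 8 in WT, where 135, 85 and 109 of all 9483 genes were. The siRNA cells showed no common direction for the 134, with a median of 0.00. In those cells 66 of the 134 were negative, beside 4983 of 9481 genes with at least 200 counts. Some of the 134 had a far lower level there: HILPDA was at 25.9 and 27.7 CPM in siNTC, against 445 CPM in K450RK451R Veh. Others did not, such as MT-RNR1 at 11025 and 13618 CPM, against 12719.5 CPM. A low level limits what the siRNA cells can show for such genes.

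Whether the Dox effect of K450RK451R differed from that of the other lines was tested gene by gene as an interaction. At an adjusted p under 0.05 it differed for 5 of 13765 genes (0.0363%), 1 more positive (0.00726%) and 4 more negative (0.0291%), and at an unadjusted p under 0.05 for 533 and 489 (3.87% and 3.55%). By DESeq2 the counts at the adjusted p were 1 and 0, by limma-voom 2 and 3. Without the WT line 9 and 9 genes passed, and without K451R 2 and 22. No HIF, immediate-early, E2F or MYC target was among the 5. Of the 41 HIF targets, 12 had an unadjusted p under 0.05 for a more negative effect and 1 for a more positive one, where 3.81% and 3.57% of all genes with at least 200 counts did.

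NEAT1 (chr11:65190245-65213011), the long noncoding RNA that builds nuclear paraspeckles, was the gene with the more positive effect. Its Veh and Dox counts in K450RK451R were 3304 and 3183, or 335 and 247 CPM. WT had 1123 and 254 CPM, K450R had 835 and 268 CPM, and K451R had 671 and 177 CPM. The Dox level of the double mutant was therefore within the range of the other Dox libraries, while its Veh level was less than that of every other Veh library. The log2 fold change was −0.44 in K450RK451R and −1.90 over the other lines, a difference of 1.46 (SE 0.14, edgeR adjusted p = 6.16e-08). MALAT1, its neighbour and another abundant nuclear RNA, was at 1679 and 1229 CPM in K450RK451R against Veh levels of 1869 to 2861 CPM elsewhere, with a difference of 0.63 (edgeR adjusted p = 0.0899).

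The genes with a more negative effect were AC010970.2, annotated as a processed pseudogene, and 3 copies of 5.8S ribosomal RNA, RNA5-8SP6, RNA5-8SP3 and RNA5-8SP2. AC010970.2 went from 319 to 195 CPM in K450RK451R (−0.71), and its other 6 libraries lay between 217 and 303 CPM (difference −0.72, edgeR adjusted p = 0.0212). In the siRNA cells AC010970.2 stood at 5990 and 92731 CPM in siNTC and at 8152 and 309 CPM in siEHMT1. Its level thus varied widely between samples of the same group there, and it was grouped with the rRNA-like genes. RNA5-8SP6 had 101 Veh and 6 Dox counts. Its Veh level of 10.2 CPM in K450RK451R compared with 0.676 CPM or less in the other Veh libraries, so again the Veh library of the double mutant stood apart. Reads of such copies can map to several loci, which makes these counts uncertain.

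**Figure D4:**
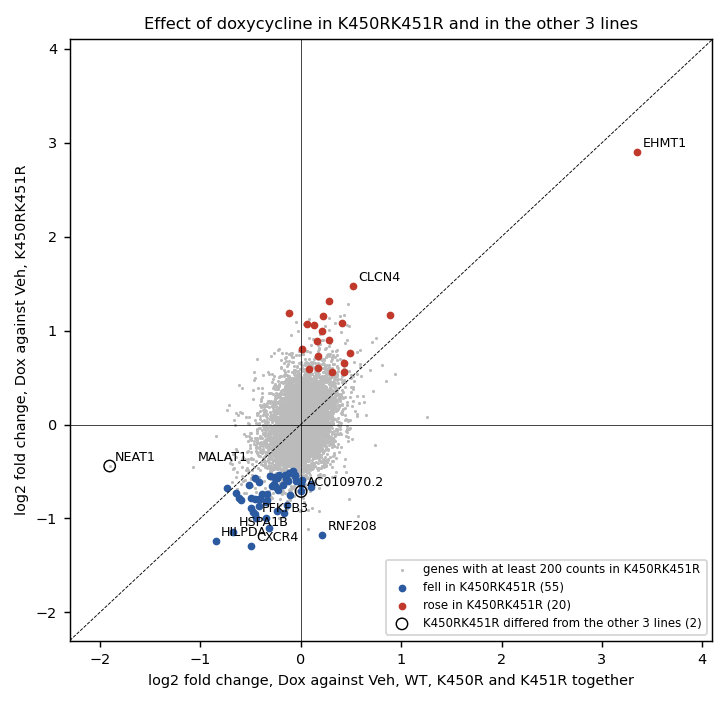
Log2 fold change of Dox against Veh in K450RK451R (vertical) and over WT, K450R and K451R together (horizontal) for genes with at least 200 counts, with a dashed line of equal effects. Genes that fell in K450RK451R (55 of them with at least 200 counts) lie mostly left of 0, and the open circles mark NEAT1 and AC010970.2, which differed from the other lines.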

How the data were processed

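RNA-seq libraries were made by the authors from total RNA with a stranded kit and sequenced as single-end reads. The submitters' processing notes name hg19 (GRCh37), FastQC 0.11.9, STAR 2.7.2 and featureCounts 1.6.4, without their roles. Which annotation was counted, and whether by strand, is not given in the sources used here. The authors deposited raw counts per Ensembl gene in 2 tables, with 57773 genes for the stable lines. Groups and replicate numbers came from the sample labels. Totals per summed stable-line condition were 8436791 to 12407739 counts.

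Columns of a condition were summed, filtered with edgeR's default filter (13765 genes) and scaled by TMM. Fold changes in K450RK451R carry exact binomial 95% intervals, and genes were counted at 1.5-fold with at least 200 counts over both libraries. Interactions and the Dox effect with the spread of the other 3 lines were tested by edgeR's quasi-likelihood method (edgeR 4.0.16, R 4.3.3) with Benjamini-Hochberg adjustment. The siRNA samples (14532 genes) were tested within their own table. DESeq2 1.42.0, limma-voom (limma 3.58.1), other scalings, filters and left-out columns or lines were alternatives. The fitting steps were tested on simulated data. The libraries may not be separate cultures, so p-values measure the spread between these samples.

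Named genes were EHMT1 and genes the study names, the 10 highest and 10 lowest fold changes, genes past the interaction test, and up to 4 members a list with the largest change or those past 1.5-fold. Genes named because they rose or fell in the added test were chosen after their values were seen. The comparison, members and lists were chosen with earlier results of these data known. Positions on GRCh37 come from GENCODE release 44, where 55538 identifiers matched. Promoters come from RefSeq. Lists were written by hand, 829 of whose symbols matched and 3 did not.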

Additional observations from a re-analysis of the deposited data

Results flagged for a closer look

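The Dox effect in K450RK451R differed from that of the other 3 lines, by the interaction test of edgeR, for 5 genes. NEAT1 differed by 1.46 on the log2 scale (adjusted p = 6.16e-08). The double-mutant effect was the more negative one for AC010970.2, by −0.717 (adjusted p = 0.0212), and for the 5.8S rRNA copies RNA5-8SP6, RNA5-8SP3 and RNA5-8SP2, by −6.19, −8.59 and −5.49 (adjusted p = 0.000109, 0.000173 and 0.0243). RNA5-8SP3 had 59 Veh counts and 1 Dox count in this line and 0 counts in K450R Veh, so its fitted difference depends on the prior count. RNA5-8SP2 had 63 and 3 counts. In all 5 the Veh library of the double mutant was the lowest or the highest of the 4 Veh libraries. With mitochondrial and rRNA-like genes left out, which removes the other genes named here, NEAT1 still differed by 1.46.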

How the results depend on the processing

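With 1 library a side, the depth limits the fold changes: at 200 to 250 counts a change under about 0.40 on the log2 scale is within counting error. In K450RK451R the 202 higher and 134 lower genes became 6 and 34 with at least 1000 counts, 1085 and 725 without the count minimum, and 23 and 7 at 2-fold. With upper-quartile scaling they were 226 and 119, and the higher share of the calls went from 60.1% to 65.5%. Leaving out a K450RK451R column gave 137 to 206 higher and 108 to 127 lower, and a correction for GC content and length, added after the data were examined, 184 and 140. EHMT1 induction ranged from 2.86 to 2.93 (log2).

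For the difference from the other lines (1 and 4 genes), limma-voom gave 2 more positive genes. There were 0 more negative genes with DESeq2, 1 without a filter on low counts, 2 at 1 CPM in 2 libraries and 0 without mitochondrial and rRNA-like genes. Without WT the counts were 9 and 9, without K450R 4 and 4, without K451R 2 and 22. Left-out columns gave 2 to 5 more negative genes, with 2 without K450RK451R Veh replicate 2 or without Dox replicate 1, where AC010970.2 and RNA5-8SP2 no longer passed. For the Dox effect with the spread of the other lines (25 and 61), the counts were 1 and 2 with DESeq2, 1 and 3 without a filter, and 12 and 43 at 1 CPM in 2 libraries. They were 112 and 185 without WT, 58 and 108 without K450R, and 62 and 125 without K451R. Left-out columns gave 7 to 14 and 33 to 49. NEAT1 passed in all alternatives run for it. The cause of the other shifts was not tested.

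The 16 columns carry replicate numbers, but same-numbered columns did not deviate together (correlation 0.0414 for K450RK451R Veh and Dox, −0.0318 to 0.0470 over 28 pairs of conditions). With the number as a replicate block, 201 genes were higher and 135 lower. For the interaction no replicate block could be set, since each summed library holds both numbers. For siEHMT1 the block gave 118 genes in place of 19 at a correlation of 0.00055, and left-out samples gave 34 (without siNTC replicate 2) to 106 (without siEHMT1 replicate 2).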

Other observations

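Of 38 genes for CLK kinases, cyclin L and SR proteins, which act in splicing, 1 fell, beside 0.58% of all genes. CLK1, a kinase of SR proteins, went from 114 to 66.7 CPM in K450RK451R (log2 fold change −0.78, edgeR adjusted p = 0.00189). Its log2 fold change was −0.26 in WT, −0.48 in K450R and −0.77 in K451R. The list median was −0.18 in K450RK451R and −0.19, −0.23 and −0.32 in the others. Among 13 nuclear noncoding RNAs, SNHG1, a snoRNA host gene, fell from 146 to 87.8 CPM (−0.73, edgeR adjusted p = 0.00175) and was lower with Dox in every line. In K450RK451R 1 of 17 interferon-stimulated genes fell, beside the same 0.58% of all genes. It was the transcription factor IRF1, from 30.8 to 15.9 CPM (−0.96, edgeR adjusted p = 0.00619), and its WT libraries were at 62.1 and 45.5 CPM. Of the neuroendocrine markers, 4 of 7 had no count in K450RK451R, and ENO2, which is also a glycolytic enzyme, made up most of their sum at 339 and 252 CPM.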
